A study of Mus musculus with 24 samples.

Results

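Amino acids cross the plasma membrane through solute carriers, and 10 genes of this class were followed here: Slc7a11, Slc7a5, Slc3a2, Slc7a1, Slc7a3, Slc7a6, Slc1a4, Slc1a5, Slc38a2 and Slc6a9. They were taken by symbol from a table of 23235 genes, and all 10 were found. The cells were T11, a murine claudin-low breast cancer line, which carried a luciferase gene in every group. They had grown for 3 days in medium with 1% serum, and were then given PBS, the peptide Omomyc, the peptide FPP-1746 or the fusion of both, FPP-1746-Omomyc. Omomyc is a mutant MYC dimerisation domain that competes with MYC for MAX and for DNA, and FPP-1746 is a cell-penetrating peptide. Peptides were used at 5 µM, and RNA was taken after 3 h or 6 h. Each of the 8 groups has 3 biological replicates, but the deposited value is their average, so no spread, interval or test over replicates can be given, and every difference below lacks a replicate check. For the fusion at 6 h, the treatment label of all 3 samples reads 3 h, while the titles and the table's column read 6 h and were followed.

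Several of these proteins work in pairs. The heavy chain encoded by Slc3a2 carries light chains of the Slc7 family to the cell surface: the leucine and large neutral amino acid exchanger Slc7a5, the exchanger of cationic and neutral amino acids Slc7a6, and the cystine-glutamate exchanger Slc7a11, which supplies cysteine for glutathione. Slc7a1 and Slc7a3 import arginine and lysine without a heavy chain. Slc1a4 and Slc1a5 exchange small neutral amino acids, Slc1a5 being the main glutamine carrier of many tumour cells, Slc38a2 imports neutral amino acids together with sodium, and Slc6a9 imports glycine. Several of these genes are known targets of the transcription factor ATF4, which cells make more of when amino acids run short or proteins misfold, and Slc7a11 is also a known target of NRF2.

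Values are FPKM, reads scaled to transcript length and to library size, so levels can be set side by side between genes. Log2 ratios were taken of FPKM + 1, which understates the change of low genes, and a ratio of at least 2-fold in either direction counted as a call. Calls were counted over the 10262 genes whose mean across the 8 groups reached 1 FPKM. Of the 10 transporters 9 passed this filter, and each of the 9 was above 1 FPKM in every group. Slc7a3 did not pass. The line matched its label: all 9 mesenchymal markers, Vim among them, were at 1 FPKM or more in every group. Of 9 epithelial markers none reached 1 FPKM in any group, with Epcam, Cldn3, Krt18 and Krt5 at 0 throughout. Summed over all genes, a column held 445657 to 594951 FPKM, and the fusion at 3 h held the most. The step between low values was sought only within a fixed range. It gave 1 FPKM on a transcript of 2000 bases as about 68 to 98 fragments over the libraries of a group. This rough figure follows largely from the range searched, so depth was not measured.

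The promoters are shown first, as a description, and a link between them and the levels of the members was not tested. RefSeq starts in build GRCm38.p6 were found for 7 of the 10 members, with 11 starts in all. The 300 bases from 250 before to 50 after each start were searched on both strands for TGATGNAAN, the composite element bound by C/EBP and ATF factors, for TGACNNNGC, the core of the antioxidant response element, and for CACGTG, the E-box bound by MYC and MAX. Below, 120 bases before and 30 after the start are printed 5′ to 3′ on the gene's strand, with every match in capitals. Positions count from 1 at the start of transcription, with negative numbers before it.
Slc7a11, chr3:50443584-50443733, minus strand: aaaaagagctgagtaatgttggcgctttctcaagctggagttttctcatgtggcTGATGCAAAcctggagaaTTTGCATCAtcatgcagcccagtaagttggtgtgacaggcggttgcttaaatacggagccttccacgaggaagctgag
Slc1a4, chr11:20332684-20332833, minus strand: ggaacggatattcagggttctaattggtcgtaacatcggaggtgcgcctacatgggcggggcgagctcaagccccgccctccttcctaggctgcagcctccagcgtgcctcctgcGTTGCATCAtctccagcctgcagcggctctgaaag
Slc38a2, chr15:96699699-96699848, minus strand: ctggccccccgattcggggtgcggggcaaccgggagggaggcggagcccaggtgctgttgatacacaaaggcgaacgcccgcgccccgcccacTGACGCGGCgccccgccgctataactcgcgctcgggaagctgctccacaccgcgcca
Slc3a2, chr19:8713868-8714017, minus strand: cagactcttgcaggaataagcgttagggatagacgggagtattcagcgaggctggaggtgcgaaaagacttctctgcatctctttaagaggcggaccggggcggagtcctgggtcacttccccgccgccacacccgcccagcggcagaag
Slc6a9, chr4:117835138-117835287, plus strand: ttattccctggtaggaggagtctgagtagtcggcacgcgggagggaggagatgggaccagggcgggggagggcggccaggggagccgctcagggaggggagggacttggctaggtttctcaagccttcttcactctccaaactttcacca
Slc6a9, chr4:117849230-117849379, plus strand: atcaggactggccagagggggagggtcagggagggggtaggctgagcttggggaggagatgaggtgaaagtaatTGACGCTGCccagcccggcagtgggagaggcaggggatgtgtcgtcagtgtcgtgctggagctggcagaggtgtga
Slc6a9, chr4:117855427-117855576, plus strand: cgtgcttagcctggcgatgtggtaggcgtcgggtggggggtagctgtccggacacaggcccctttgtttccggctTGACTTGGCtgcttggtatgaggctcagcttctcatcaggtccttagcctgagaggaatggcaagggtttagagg
The composite element matched in 2 of the 7 members, where 4.50% of the 27025 genes in the table had a match. Counted by start, it matched in 2 of 11 member promoters and in 3.95% of all 32851 promoters. In Slc7a11 it occurred at -66 to -58 on the gene's strand and again at -48 to -40 on the opposite strand. In Slc1a4 it lay across the start, from -5 to 4, on the opposite strand. The antioxidant core matched in 4 of the 7 members, Slc6a9, Slc7a1, Slc7a6 and Slc38a2, and in 14.0% of all genes. By start these were 6 of 11 member promoters, beside 12.4% of all promoters. The promoters of Slc7a6 overlap and share the same site, so 6 counts promoters and not separate sites. In Slc38a2 the antioxidant core stood at -27 to -19, and in Slc6a9 before the second and the third of its 3 starts. The E-box matched in no member, and in 8.09% of all genes and 7.15% of all promoters. Slc3a2 and the upstream start of Slc6a9 held none of the 3 motifs in this window. Slc3a2, Slc38a2 and Slc6a9 are printed because they passed 2-fold at both times, and Slc7a11 and Slc1a4 were added after their matches were seen. Slc7a1 and Slc7a6 are not printed, so every composite match is shown but not every antioxidant match. A match in letters does not show that a factor binds.

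With the fusion at 3 h, 3 of the 9 tested transporters were at least 2-fold above PBS, where 6.13% of all tested genes were. These were Slc38a2, Slc6a9 and Slc3a2. At 6 h 6 of the 9 were higher, against 7.13% of tested genes: the same 3 with Slc7a11, Slc7a1 and Slc1a4. None was lower at either time, where 4.42% and 3.34% of tested genes were. The median log2 ratio of the 9 was 0.61 at 3 h and 1.45 at 6 h, beside 0.0034 and -0.026 over all tested genes. In all 9 the fusion column stood above the 3 other columns of its time, at 3 h as at 6 h, a pattern of 46.0% and 44.0% of tested genes. Under quantile normalisation of the columns this held for 8 of 9 at 3 h, with Slc1a5 slightly below its Omomyc column (-0.08), and only Slc38a2 was past 2-fold over PBS at 3 h. RNA came from whole cultures, so that more or fewer cells of a kind and more or less RNA per cell cannot be told apart.

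**Figure D1:**
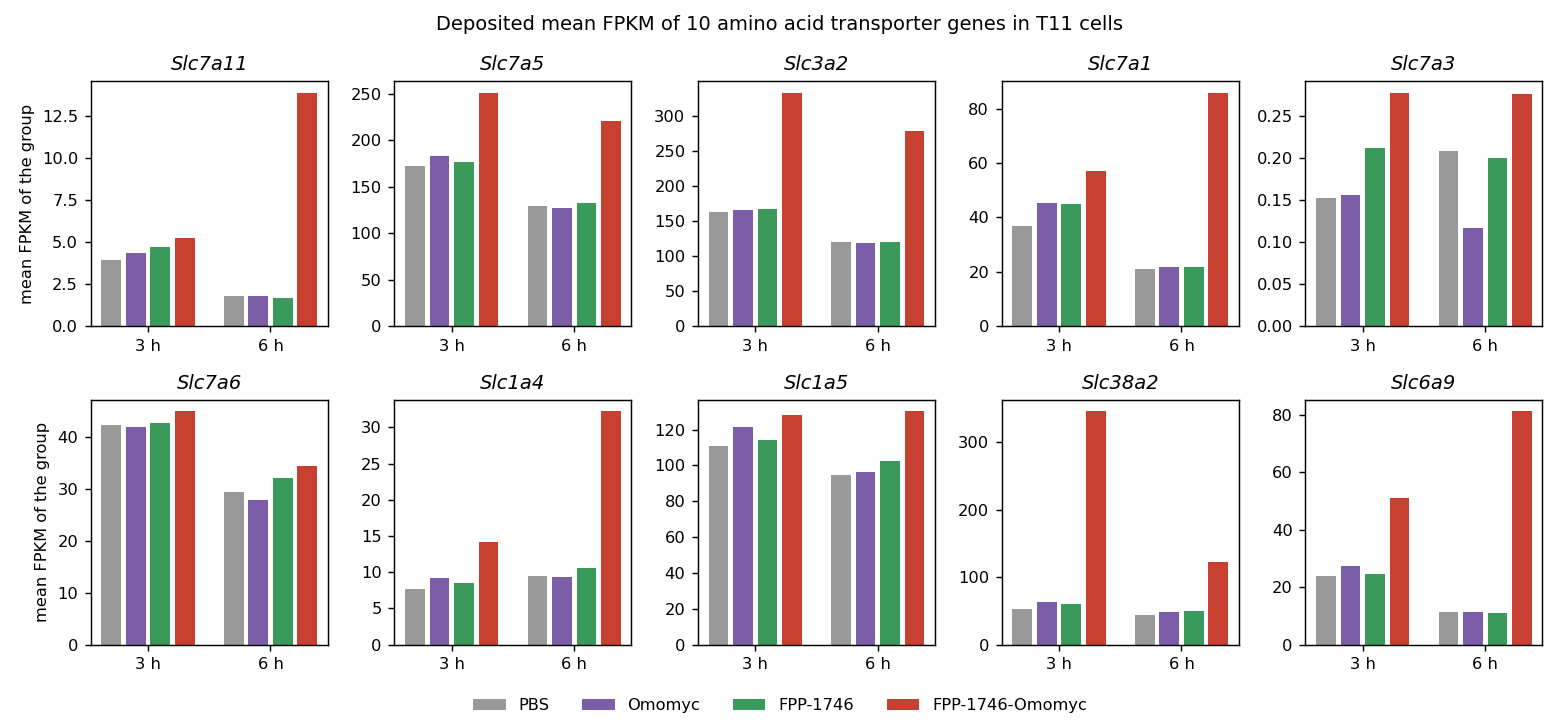
Deposited mean FPKM (vertical axes, linear and starting at 0, 1 scale per gene) of the 10 transporter genes in the 4 treatments at 3 h and 6 h; each bar is 1 averaged column, so no error bars can be drawn. The red bar of the fusion is the tallest at each time in every panel; it peaks at 3 h for Slc38a2 (346 FPKM) and at 6 h for Slc7a11, Slc7a1, Slc1a4 and Slc6a9.

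Slc3a2, the shared heavy chain, lies on chromosome 19 from 8781372 to 8797859 in build mm9. At 3 h it stood at 163 FPKM in PBS, 165 after Omomyc, 167 after FPP-1746 and 333 after the fusion. The 6 h values were 120, 118, 119 and 278 FPKM in the same order. The 3 columns without the fusion were nearly level at each time, within 1.02-fold of each other, and the fusion was 2.04-fold and 2.31-fold above PBS. Its log2 ratio was 1.03 at 3 h and 1.20 at 6 h, so it passed the rule narrowly. Quantile normalisation took the 3 h value to 0.76, and the mean of both PBS columns as reference took the 6 h value to 0.97, each under the rule.

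Slc7a5, the most abundant light chain, lies on chromosome 8 from 124405046 to 124431586. It was at 173, 184 and 177 FPKM with PBS, Omomyc and FPP-1746 at 3 h and at 251 with the fusion. At 6 h the values were 129, 127, 132 and 220 FPKM. The fusion column was thus above the others at both times, but at 1.45-fold and 1.71-fold over PBS it did not pass the rule. Slc7a6, also on chromosome 8, from 108692775 to 108722604, had the smallest ratio of fusion over PBS among the tested members at both times. It lay between 41.9 and 42.7 FPKM without the fusion and at 45.0 with it at 3 h, and between 27.8 and 32.0 against 34.5 at 6 h. Its log2 ratios over PBS were 0.08 and 0.23.

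Slc7a11, the cystine carrier, lies on chromosome 3 from 50168858 to 50247535, and it is the gene whose promoter held the composite element on both strands. At 3 h it was at 3.92 FPKM in PBS, 4.36 after Omomyc, 4.73 after FPP-1746 and 5.23 after the fusion. By 6 h these groups stood at 1.77, 1.79, 1.69 and 13.9 FPKM. At 3 h the fusion column stood 1.11-fold above the highest of the others, and at 6 h 7.78-fold. The log2 ratio over PBS went from 0.34, short of the rule, to 2.43, which placed it 69th from the top of the 10262 tested genes. Because its level is low, the size depends on the pseudocount: with 5 FPKM added the 6 h value was 1.48 and with 0.1 FPKM it was 2.91. The PBS level itself was lower at 6 h, and against PBS at 3 h the fusion at 6 h was 3.54-fold higher.

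Summed as FPKM, the 3 light chains stood at 219 in PBS and 301 with the fusion at 3 h, and at 160 and 269 at 6 h. The ratio of heavy to summed light chain mRNA was between 0.72 and 0.76 in the 6 groups without the fusion. With the fusion it was 1.10 at 3 h and 1.03 at 6 h. Slc7a5 made up 78.9% to 81.1% of the light chain sum without the fusion, and 83.3% and 82.0% with it. The share of Slc7a11 was 1.11% in PBS and 5.17% with the fusion at 6 h, while at 3 h it was 1.79% and 1.74%. Per FPKM, Slc7a5 exceeded Slc7a11 by 72.8-fold in PBS at 6 h and by 15.9-fold with the fusion. Of the other known light chains of this heavy chain, Slc7a7 was at most 0.155 FPKM, Slc7a8 at most 0.0061 FPKM, and Slc7a10 was listed at 0 in all groups.

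**Figure D2:**
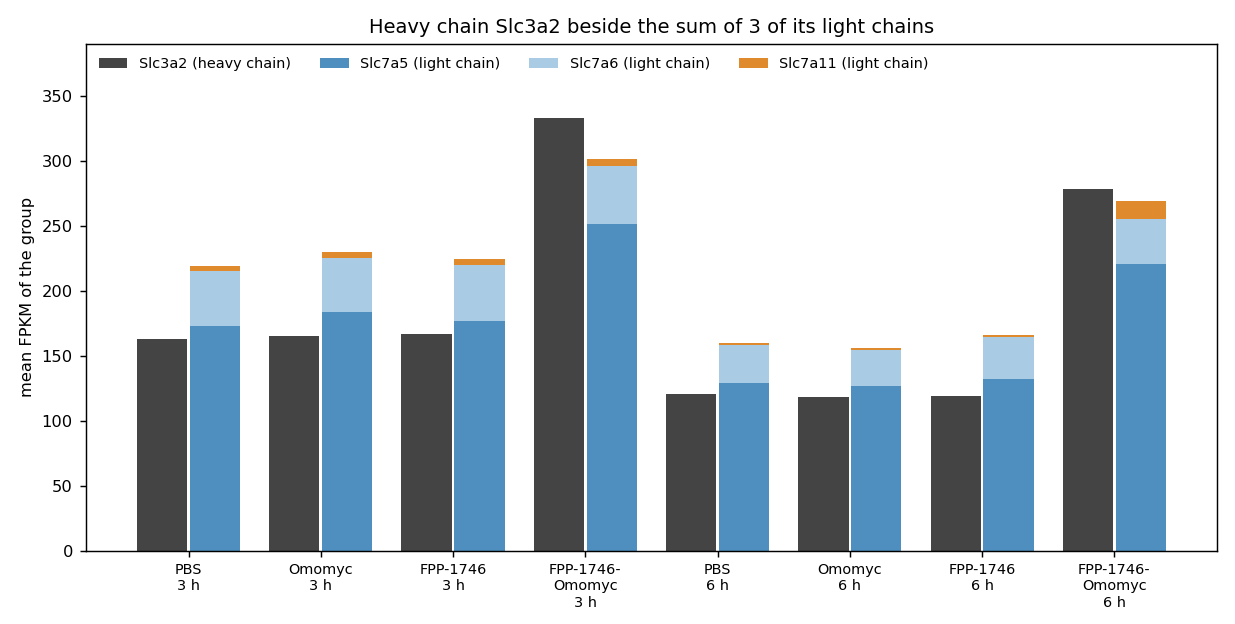
Mean FPKM (vertical axis, linear) of the heavy chain gene Slc3a2 (dark bars) beside the stacked light chain genes Slc7a5, Slc7a6 and Slc7a11 in the 8 groups, 1 averaged column each. The dark bar is shorter than the stack in the 6 groups without the fusion, with ratios of 0.72 to 0.76, and taller with the fusion, 1.10 at 3 h and 1.03 at 6 h; the orange Slc7a11 segment is widest with the fusion at 6 h.

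Of the carriers of arginine and lysine, Slc7a1 lies on chromosome 5 from 149138986 to 149211480. Its 3 h values were 37.0 FPKM in PBS, 45.2 after Omomyc, 44.9 after FPP-1746 and 57.1 after the fusion. Its 6 h values were 21.1, 21.6, 21.9 and 85.9 FPKM. The fusion was 1.26-fold above the highest other column at 3 h and 3.93-fold at 6 h, and the log2 ratio over PBS went from 0.61 to 1.98. At 3 h both parts alone stood above PBS too, by 0.28 and 0.27 on the log2 scale, so the fusion exceeded the sum of the parts by only 0.06. Its relative Slc7a3, on chromosome X from 98274560 to 98280691, was barely detected, between 0.117 and 0.278 FPKM. The step estimate puts these at about 14 to 34 fragments per group, a figure that follows largely from the range searched. It was highest with the fusion at both times, but no fold is read from values this low.

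Among the carriers of neutral amino acids, Slc38a2 had the largest early difference. It lies on chromosome 15 from 96517823 to 96530129. After 3 h PBS cells held 52.3 FPKM, Omomyc cells 62.8, FPP-1746 cells 60.8 and fusion cells 346, which is 6.61-fold over PBS. After 6 h the values were 44.0, 48.7, 49.6 and 122 FPKM, the last 2.77-fold over PBS. It rose with the fusion at both times, with log2 ratios of 2.70 and 1.45, and it is the only tested member with the smaller ratio at 6 h. Among the 10 genes Slc38a2 took place 4 by level in every group without the fusion, and place 1 with the fusion at 3 h. Its share of their summed FPKM was 8.53% in PBS at 3 h, 28.1% with the fusion at 3 h and 12.2% with the fusion at 6 h.

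The exchangers of small neutral amino acids differed from each other. Slc1a4, on chromosome 11 from 20202183 to 20232716, was at 7.67, 9.20 and 8.52 FPKM with PBS, Omomyc and FPP-1746 at 3 h and at 14.2 with the fusion. The 6 h series was 9.44, 9.36, 10.6 and 32.2 FPKM. Its log2 ratio was 0.81 at 3 h and 1.67 at 6 h, past the rule at 6 h. Slc1a5, the glutamine carrier, lies on chromosome 7 from 17366695 to 17383623 and was abundant in all groups. It was at 111, 121, 114 and 128 FPKM at 3 h and at 94.5, 96.4, 102 and 130 FPKM at 6 h. Its ratios of 0.21 and 0.46 did not pass, and at 3 h the fusion was 1.06-fold above the Omomyc column.

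Slc6a9, the glycine carrier, lies on chromosome 4 from 117507863 to 117545075, a locus that the table gives to Ccdc24 as well. PBS cells had 23.8 FPKM at 3 h, Omomyc cells 27.4, FPP-1746 cells 24.7 and fusion cells 51.0, 2.14-fold over PBS. Values at 6 h were 11.3, 11.5, 10.8 and 81.2 FPKM, the last 7.21-fold over PBS. The log2 ratios were 1.07 at 3 h, close to the rule, and 2.74 at 6 h, rank 44 of all tested genes. Ccdc24 did not move the same way: with the fusion it was at 1.81 and 1.65 FPKM, below its 4.18 to 5.78 FPKM in the other 6 groups. Reads of the pair cannot be told apart where the genes overlap, and no strand rule is given.

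The members therefore differed in timing. The log2 ratio of fusion to PBS was larger at 6 h than at 3 h by 2.09 for Slc7a11, 1.68 for Slc6a9, 1.36 for Slc7a1 and 0.86 for Slc1a4. For Slc3a2, Slc7a5, Slc1a5 and Slc7a6 the ratios at the 2 times were within 0.25 of each other. For Slc38a2 the ratio was smaller at 6 h by 1.25. These differences between times were not tested. Within the fusion columns themselves, Slc7a11 (1.26) and Slc1a4 (1.13) were at least 2-fold higher at 6 h than at 3 h on the log2 scale, 2 of 9 beside 7.27% of tested genes. Slc38a2 (-1.50) was lower, 1 of 9 beside 4.92%. Both higher calls fell short with 5 FPKM added, at 0.88 and 0.96.

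**Figure D3:**
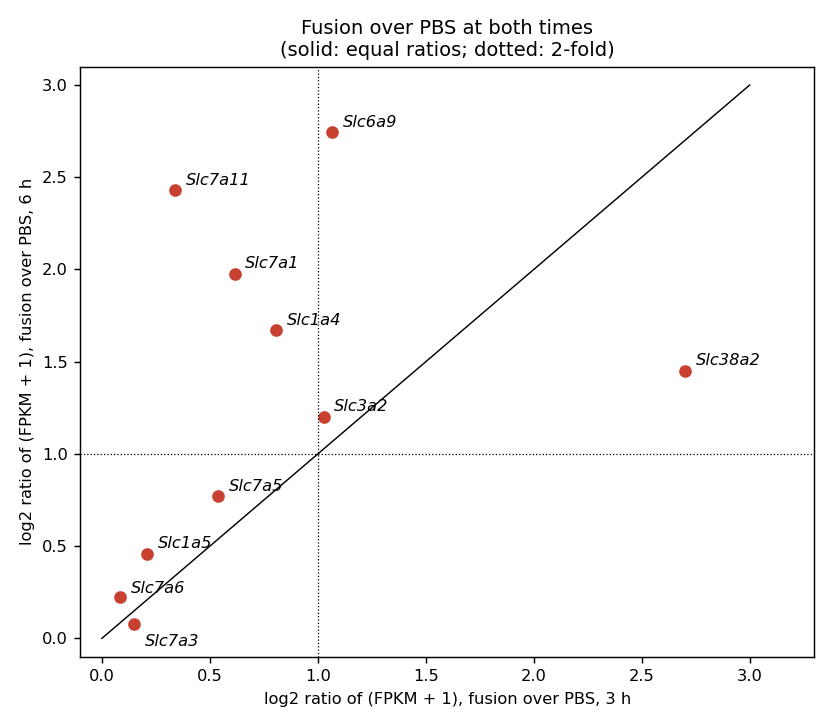
Log2 ratio of FPKM + 1 of the fusion over PBS at 3 h (horizontal) and at 6 h (vertical) for the 10 genes; dotted lines mark 2-fold and the solid line equal ratios. Slc38a2 lies right of the solid line at 2.70 and 1.45, while Slc6a9, Slc7a11, Slc7a1 and Slc1a4 lie well above it.

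The reference also differed between the times. In PBS 8 of the 9 tested members had a lower value at 6 h than at 3 h, beside 5308 of 10262 tested genes. The median log2 ratio of the 9 was -0.43, beside -0.0075 over all tested genes. Slc6a9 alone passed 2-fold as lower (-1.02), 1 of 9 beside 0.487% of tested genes, and Slc7a11 (-0.83) and Slc7a1 (-0.78) came next. In the same 8 members every one of the 3 columns without the fusion was lower at 6 h than all 3 were at 3 h, a pattern of 32.8% of tested genes. In Slc1a4 the 3 columns at 6 h were all higher, as in 28.4% of tested genes. The 6 h ratios of Slc7a11, Slc6a9 and Slc7a1 are thus taken over a lower PBS value than the 3 h ratios. Against the mean of both PBS columns their 6 h log2 ratios were 1.95, 2.15 and 1.53, still past the rule, and Slc1a4 was at 1.80.

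Neither part of the fusion gave this pattern at the same 5 µM. With FPP-1746 alone no member was 2-fold from PBS in either direction, where 0.614% of tested genes were at 3 h and 0.555% at 6 h. With Omomyc alone none was either, where 0.614% and 0.682% were. Most of those calls were records of small RNAs. Without such records the shares were 0.0296% and 0.0494% for FPP-1746, and 0.00988% and 0.0593% for Omomyc. The largest log2 ratio of a tested member was 0.27 for FPP-1746 and 0.28 for Omomyc at 3 h, both in Slc7a1. At 6 h it was 0.17 and 0.14, both in Slc38a2. At 3 h 9 of 9 members had a value above PBS with FPP-1746 and 8 of 9 with Omomyc. Of all 10262 tested genes 5414 and 5630 did. The medians of the members were 0.050 and 0.13. At 6 h the numbers above PBS were 6 and 5 of 9, near the 5366 and 5205 of 10262 tested genes. Each of these comparisons uses the same PBS column, so they are not independent of each other.

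Set against its parts directly, the fusion had 2 of 9 members higher than FPP-1746 at 3 h, where 5.86% of tested genes were. These were Slc38a2 (2.49) and Slc6a9 (1.02), with Slc3a2 just short (0.99). Against Omomyc at 3 h, Slc38a2 (2.44) and Slc3a2 (1.01) passed, beside 5.56% of tested genes, and Slc6a9 was at 0.87. At 6 h the same 6 members that passed against PBS passed against FPP-1746 and against Omomyc, beside 6.94% and 6.59% of tested genes. Their log2 ratios lay between 1.21 for Slc3a2 and 2.80 for Slc6a9 against FPP-1746, and between 1.23 and 2.72 for the same genes against Omomyc. The fusion exceeded the summed log2 ratios of its parts by 2.23 for Slc38a2 at 3 h and by 2.77 for Slc6a9 and 2.46 for Slc7a11 at 6 h. For Slc7a11 at 3 h the fusion and the sum of the parts were both at 0.34. These sums use the shared PBS column, and no error can be put on the excess.

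**Figure D4:**
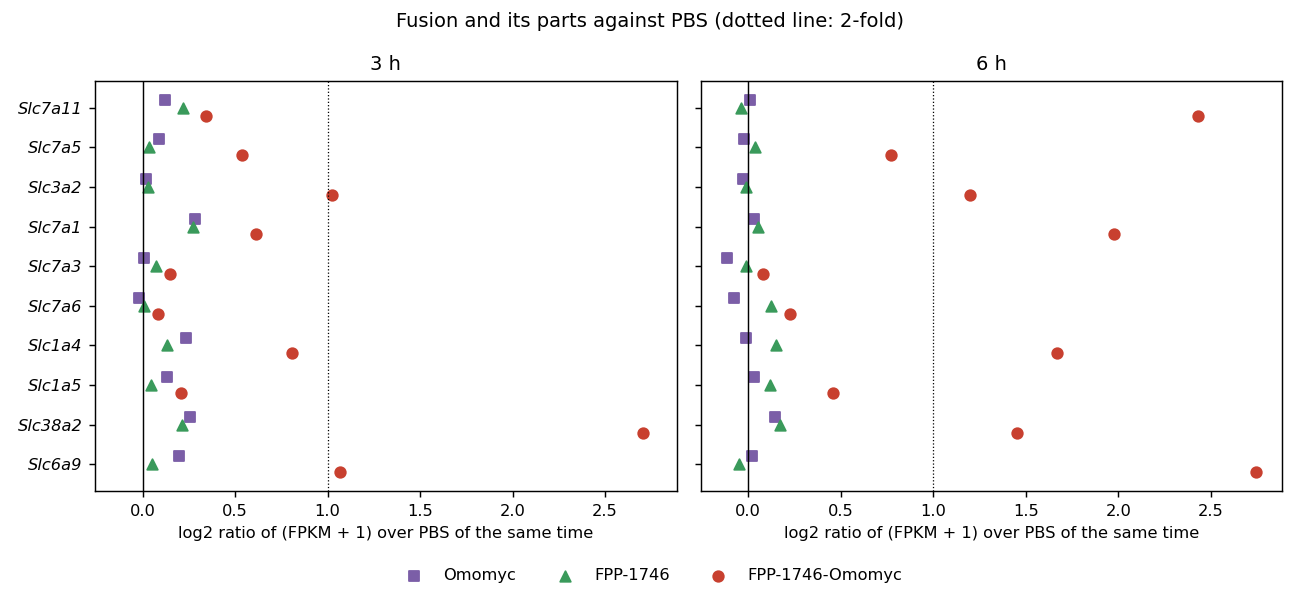
Log2 ratio of FPKM + 1 over PBS of the same time (horizontal) for Omomyc (purple squares), FPP-1746 (green triangles) and the fusion (red circles) in the 10 genes; the dotted line marks 2-fold. The parts stay within 0.28 of 0, and the fusion passes the line in 3 genes at 3 h and in 6 at 6 h.

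By level, the 6 groups without the fusion shared the order Slc7a5, Slc3a2, Slc1a5, Slc38a2 at the top and Slc6a9, Slc1a4, Slc7a11, Slc7a3 at the bottom, with Slc7a6 and Slc7a1 trading the places between. The top 3 genes held 71.0% to 74.6% of the summed FPKM of the 10 genes in these groups. With the fusion at 3 h the order began with Slc38a2, Slc3a2 and Slc7a5, at 6 h with Slc3a2, Slc7a5 and Slc1a5, and the top 3 held 75.6% and 63.0%. Summed over the 10 genes, PBS cells held 614 and fusion cells 1231 FPKM at 3 h, and 461 and 999 FPKM at 6 h. These sums are not shares of a common total. Over all genes the same columns held 486989 and 594951 FPKM at 3 h, and 468758 and 445657 FPKM at 6 h. Slc7a6, with 34.5 FPKM with the fusion at 6 h, stood next to Slc1a4 at 32.2, and without replicates it cannot be said whether such neighbours differ.

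Over the 8 groups the members' log2 levels followed each other to different degrees. These correlations describe only 8 averaged points. For the 6 members past 2-fold the fusion columns are the 2 highest of the 8, whereas Slc7a6 differs mainly by time, with 41.9 to 45.0 FPKM at 3 h and 27.8 to 34.5 at 6 h. Slc7a1 and Slc6a9 had the highest Pearson correlation (0.99), followed by Slc7a11 with Slc7a1 (0.98), the pair Slc7a5 and Slc3a2 (0.97), and Slc7a11 with Slc6a9 (0.96). Slc7a6 with Slc1a4 had the lowest (-0.07), and Slc38a2 with Slc7a11 was at 0.58. Among 10122 tested genes outside records of small RNAs, the 3 closest to Slc6a9 were Gpt2, which makes alanine from pyruvate and glutamate, Rab2b and Rhbdd1, all at 1.00. Gpt2 was at 19.7 FPKM with PBS and 86.6 with the fusion at 6 h, Rab2b at 4.58 and 7.81, and Rhbdd1 at 17.5 and 35.0. Slc6a9 itself was at 11.3 and 81.2 FPKM. Correlation ignores the size of a change, so a close gene can change far less than the member. The same limit holds for the genes named next. The 3 closest to Slc7a1 were Ranbp9, Nars, the asparaginyl-tRNA synthetase gene, and 4933424B01Rik, at 0.99 to 1.00. For Slc38a2 they were Dusp8, a MAP kinase phosphatase gene, and the lysosomal membrane protein genes Laptm4a and Scarb2, all at 1.00. For Slc7a11 they were Tmem68, Smndc1 and Osbpl11 (0.99 to 1.00), for Slc3a2 Klf13, Pi4k2b and Abhd5 (1.00), and for Slc1a4 Trim32, the translation initiation factor gene Eif2b2 and Tfip11 (0.99 to 1.00).

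A list of 56 other amino acid transporter genes, which includes lysosomal and mitochondrial carriers, held 16 tested genes, and the other 40 were under the filter or not in the table. Of the 16, 2 were at least 2-fold higher with the fusion at 3 h and 4 at 6 h, beside 6.13% and 7.13% of all tested genes. None was lower, beside 4.42% and 3.34%. Their median log2 ratio was 0.14 at 3 h and 0.27 at 6 h, where that of all tested genes was 0.0034 and -0.026. Slc38a7, a lysosomal glutamine exporter, was at 4.19 FPKM with PBS and 16.8 with the fusion at 6 h (1.78). Slc36a1, which exports small amino acids from lysosomes (1.33), Slc6a17, a vesicular carrier of neutral amino acids (1.29), and Ctns, the lysosomal cystine exporter (1.16), also passed at 6 h. Ctns passed at 3 h as well (1.01), with Slc16a10, a carrier of aromatic amino acids (1.17). The mitochondrial aspartate-glutamate carriers Slc25a12 and Slc25a13 were at 0.06 and -0.23 at 3 h and at -0.81 and -0.62 at 6 h. Of the other mitochondrial carriers, Slc25a22 was at -0.94 at 3 h and -0.61 at 6 h, and Slc25a15 at 0.15 and -0.21. Of 142 tested solute carrier genes outside the 10 members, 10 (7.04%) were higher and 5 lower at 3 h, and 14 (9.86%) and 6 at 6 h. This set takes in those of the 16 genes above whose symbols start with Slc, so the 2 sets overlap. Over all tested genes the shares of higher genes were 6.13% and 7.13%.

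**Figure D5:**
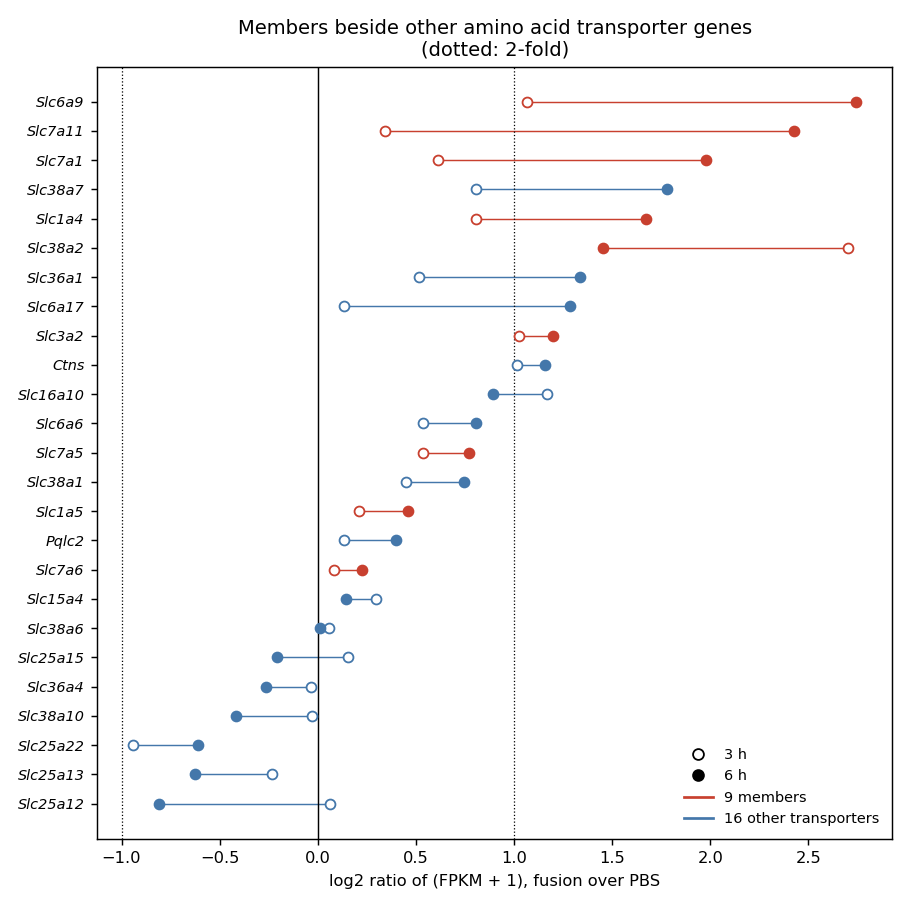
Log2 ratio of FPKM + 1 of the fusion over PBS (horizontal) at 3 h (open circles) and 6 h (filled circles) for the 9 tested members (red) and 16 other amino acid transporter genes (blue), ordered by the 6 h value; dotted lines mark 2-fold. Past the line at 6 h lie 6 of the 9 members and 4 of the 16 others, and the lowest values are those of 3 mitochondrial carriers.

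Of 18 tested genes on a list of regulators of transporter transcription, 9 were higher with the fusion at 3 h, beside 6.13% of all tested genes. At 6 h 9 were higher and 1 was lower, beside 7.13% and 3.34%. Atf3, which encodes a stress-induced factor of the ATF family, had log2 ratios of 6.41 and 4.53, and Trib3, a pseudokinase gene, 1.96 and 4.11. The CHOP gene Ddit3 was at 2.27 and 2.70, and Cebpb, a partner of ATF factors, at 2.47 and 2.60. The gene lower at 6 h was Trp53 (-1.01), which was at 48.4 FPKM with PBS and 23.6 with the fusion. The following genes, whose products bind the elements searched above, were chosen after their values were seen. Atf4 was at 280 FPKM with PBS and 676 with the fusion at 3 h, and at 252 and 725 FPKM at 6 h. The NRF2 gene Nfe2l2 was at 41.0 and 86.9 FPKM at 3 h and at 41.9 and 114 FPKM at 6 h. Bach1, whose product competes with NRF2 at the antioxidant element, was at 2.43 and 11.8 FPKM at 3 h and at 2.39 and 6.00 FPKM at 6 h. Myc, whose product binds the E-box with MAX, was at 161 and 422 FPKM at 3 h and at 106 and 447 FPKM at 6 h. All 4 passed 2-fold at both times, a count without weight since they were picked with these values known. Other C/EBP, ATF and MAX genes of the list fell short at 3 h or at both times. At 3 h and 6 h, Max had log2 ratios of 0.28 and 0.46, Atf5 0.17 and 0.99, and Cebpg 0.44 and 1.57. These are mRNA levels, and whether any of these factors acts on the transporters was not tested.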

How the data were processed

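RNA-seq values of T11 cells were used in 8 groups of 3 replicates. The authors deposited 1 table of FPKM, averaged over the replicates of each group. Per the submitters' processing notes, the build was mm9 and the tools were Cuffnorm 2.2.1, Cufflinks 2.2.1, STAR 2.1.3 and bcl2fastq 2.17.1.14, named without an order. Their settings, the library scaling, the annotation and the handling of strand were not given in these sources. Groups were taken from sample titles. Depth is not known, since the rough step estimate in the results follows largely from the range searched. No error can be put on a value.

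With Python 3.11.15 and pandas 2.3.3, log2 ratios of FPKM + 1 were computed for all 23235 genes and called at 2-fold among those with a mean of at least 1 FPKM. The calling was run on simulated data with planted changes free of noise and larger than the rule. Their recovery was fixed by design, so this checks the code and not the accuracy of the calls. With averaged columns no model or test was fitted. Alternatives were pseudocounts of 0.1 and 5, no filter and a minimum of 5 FPKM, median centring, quantile normalisation, the mean of both PBS columns as reference, and a 1.5-fold rule. Starts were shifted to count from 1, since 7165 of 20649 spans equalled RefSeq spans when read as counting from 0 and 456 otherwise. Promoters are from RefSeq in GRCm38.p6 and were not joined to mm9 positions.

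Members and lists were chosen with earlier results of these data known. All 10 members are described, and of each list 4 genes with the largest absolute log2 ratio for the fusion at 6 h. Slc16a10, Slc25a12, Slc25a13, Slc25a15, Slc25a22, Trp53, Atf4, Nfe2l2, Bach1, Myc, Max, Atf5, Cebpg, Gclm and Gsr were named in addition, after their values were seen. For members past 2-fold, the 3 genes with the highest correlation are named.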

Additional observations from a re-analysis of the deposited data

How the results depend on the processing

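All values are single averaged columns, so the settings show only how the arithmetic moves them. No replicate was left out in turn. No paired analysis was possible because the table holds no replicate columns. Slc7a3 is too low in FPKM for any ratio. Over all settings, 257 of 270 counts and medians of the members as a group stayed within 1.5 times of the reported one. Medians were compared as folds, so a median near 0 could shift and still count as stable. That of the fusion at 6 h against 3 h ran from -0.08 to 0.40. Counts of 0 that stayed at 0 are included and say little. No called ratio changed sign. The number of members higher with the fusion over PBS at 3 h, 3 as reported, was 1 under quantile normalisation and 5 by a 1.5-fold rule. Over FPP-1746 at 3 h, 2 as reported, it was 1 with pseudocount 5, 1 under quantile normalisation and 4 by the 1.5-fold rule. Over Omomyc at 3 h, 2 as reported, it was 1 with pseudocount 5 and 1 under quantile normalisation. Members lower in PBS at 6 h than at 3 h, 1 as reported, were 2 with pseudocount 0.1, 0 with pseudocount 5, 0 under quantile normalisation and 3 by the 1.5-fold rule. Members higher in the fusion at 6 h than at 3 h, 2 as reported, were 0 with pseudocount 5 and 1 with a minimum of 5 FPKM, which leaves out Slc7a11. The 6 members higher with the fusion over PBS at 6 h were 6 under median centring, quantile normalisation, no filter and both pseudocounts, 5 with the mean of both PBS columns (without Slc3a2), 5 with a minimum of 5 FPKM (without Slc7a11), and 7 by the 1.5-fold rule (with Slc7a5). Of 702 values of single members, 12 no longer passed 2-fold and 1 newly passed, and the causes were not tested. Slc6a9 with the fusion over PBS at 3 h was at 0.96 with pseudocount 5 and 0.99 under quantile normalisation.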

Other observations

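On a list of cystine and glutathione use, 1 of 13 tested genes was at least 2-fold higher with the fusion at 3 h and 3 at 6 h. Of all tested genes 6.13% and 7.13% were, so the 3 h share of 7.69% on the list is near that of all tested genes. None was lower by the rule, beside 4.42% and 3.34%. By sign alone, 10 were above PBS and 3 below at 3 h, and 9 and 4 at 6 h. Over all 10262 tested genes these numbers were 5148 and 5075 at 3 h, and 4913 and 5307 at 6 h. Chac1, which breaks down glutathione, was at 13.6 FPKM with PBS and 292 with the fusion at 3 h, and at 14.6 and 157 FPKM at 6 h. Cth, which makes cysteine from cystathionine, was at 34.1 and 119 FPKM at 6 h (log2 ratio 1.77). In PBS it was 83.9 FPKM at 3 h, a drop like those of Slc7a11 and Slc6a9. Gclc, the catalytic subunit of the enzyme that limits glutathione synthesis, passed narrowly at 6 h (1.02). Its partner subunit Gclm was at -0.33 at 3 h and -0.15 at 6 h. Txnrd1 was at -0.46 and 0.86, and Gsr at -0.68 and 0.04.

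On a list of glutamine, glutamate, serine and glycine use, 1 of 17 tested genes was higher at each time. This share is near the 6.13% and 7.13% of all tested genes. None was lower, beside 4.42% and 3.34%. At 3 h the higher gene was Glul, which makes glutamine (1.55, and 0.95 at 6 h). At 6 h it was Gpt2 (2.08). Asns, the asparagine synthetase gene, was at 235 and 458 FPKM at 6 h (0.96), just under the rule, and the glutaminase gene Gls2 was at 3.40 and 1.22 FPKM (-0.99).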
